A study of Mus musculus with 45 samples.

Results

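Tau, the microtubule-associated proteins related to it and the enzymes that add or remove phosphate on tau were followed at the mRNA level in the hippocampus of 45 female mice. The set held 10 genes of the 15897 in the deposited expression table. Mapt encodes tau, and Map1b and Map2 encode 2 other microtubule-associated proteins of neurons. Gsk3a and Gsk3b encode both forms of glycogen synthase kinase 3, Cdk5 encodes cyclin-dependent kinase 5 and Cdk5r1 its activator p35. Fyn encodes a Src-family tyrosine kinase, Mark1 a microtubule-affinity regulating kinase, and Ppp2ca a catalytic subunit of protein phosphatase 2A. The genes were chosen by name, with earlier results of these data known, and all 10 were present in the table.

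The mice fell into 8 groups, formed by 4 genotypes and 2 diets. A+ mice carried the APPswe/PS1dE9 transgene, a chimeric mouse/human APP with the Swedish mutation together with human PS1dE9, driven by the mouse prion protein promoter, and T+ mice carried human tau with the P301L mutation under the CaMKII promoter. Aw and Tw stand for the absence of these transgenes, so AwTw were wild-type littermates and A+T+ mice came from crossing both lines, and all mice shared the C57Bl/6J background. Each genotype received standard diet (STD) or typical western diet (TWD), high in fat and sucrose with added cholesterol, from 7 months of age until 13 months. The groups held 4 mice (A+T+/STD), 5 mice (A+Tw/STD) or 6 mice (each of the other groups), and every value was from a separate mouse. The CaMKII promoter is active mainly in excitatory neurons of the forebrain, which limits the tau transgene to part of the tissue's cells. The labels assign 20 mice to batch 0 and 25 mice to batch 1 without saying what the batches are.

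Tau binds along microtubules through a row of repeats, most of all in axons. When it carries many phosphate groups it leaves the microtubule and can gather into the filaments of tauopathies such as Alzheimer's disease, and the P301L mutation of a repeat is an inherited cause of frontotemporal dementia with tau deposits. GSK3 and the CDK5/p35 complex phosphorylate tau at serines and threonines, MARK kinases do so within the repeats and release tau from microtubules, Fyn phosphorylates a tyrosine near the start of the protein, and PP2A is the main tau phosphatase of brain. The values here are mRNA levels, so they do not measure phosphorylation or kinase activity.

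Mouse Mapt, the gene measured here, lies at chr11:104231390-104332090 on the + strand of GRCm38. The human transgene transcripts were not analysed here, and whether their reads reach the mouse Mapt value was not tested.

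The unit of all levels is a variance-stabilised count on the log2 scale, so a difference of 1 is about a doubling, and values over the whole table ran from 1.90 to 18.08. The total reads per mouse are not known from the table. Mouse medians lay between 8.05 and 8.31. Differences between groups were tested with limma over all 15897 genes, two-sided, with batch in the model and Benjamini-Hochberg adjustment, and a gene was called at an adjusted p under 0.05. In whole tissue, fewer cells of a type and less RNA per cell cannot be told apart. The 10 neuron markers had a mean level of 12.50 to 13.21 in every mouse, and none of the markers of the 7 cell types examined was near the lowest value of the table (lowest single value 4.35).

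The genotype labels were checked on App, Prnp and Camk2a, genes that touch the transgenes. App was 0.90 higher in A+ than in Aw mice on the log2 scale, and Prnp, whose promoter drives the APP/PS1 transgene, was 1.11 higher. The A+ mice lay at 15.05 to 15.80 for App and 14.66 to 15.02 for Prnp, and the Aw mice at 14.29 to 14.86 and 13.28 to 13.98, so the groups did not overlap. Camk2a, which gives its promoter to the tau transgene, did not pass the test between T+ and Tw mice (difference −0.06, 95% interval −0.21 to 0.08). Arsi, an arylsulfatase gene and the RefSeq neighbour of Camk2a with 0 genes between them, was named after its values were seen. Its name came from the same test between T+ and Tw mice, so it gives no independent check of the T+ label. Whether the tau transgene touches Arsi was not tested. Arsi was 1.15 higher in T+ mice (SE 0.126, adjusted p 4.36e-07 in limma). Its median was 6.62 (5.78 to 7.99) against 5.69 (5.38 to 6.51) in Tw mice. The ranges overlapped, and 12 of 22 T+ mice lay above the highest of the 23 Tw mice. No mouse was left out on this ground.

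Tau genotype was compared first: T+ minus Tw mice, averaged over APP/PS1 genotype and diet. None of the 10 genes passed the test, and 0 of 10 had an unadjusted p under 0.05 in limma. Among all genes 3 were called (0.0189%), Arsi, Camk4 (0.42 higher, adjusted p 0.0418) and the gene ENSMUSG00000095041 without a symbol (0.46 higher, adjusted p 0.00195), the last 2 also named after their values were seen. The Camk4 call was kept in 15 of 45 fits that left out 1 mouse each, and those of Arsi and ENSMUSG00000095041 in all 45. The differences of the 10 genes ran from −0.10 for Ppp2ca to 0.12 for Gsk3b, with a median of 0.02 against −0.01 over all genes tested.

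Mapt levels overlapped across the 8 groups. In AwTw/STD mice the lowest, median and highest Mapt levels were 12.69, 12.90 and 13.16, and in AwT+/STD mice 12.92, 13.01 and 13.20. On TWD they were 12.82, 12.92 and 13.05 in AwTw mice and 12.59, 12.95 and 13.40 in AwT+ mice. The T+ ranges overlapped those of their Tw controls on both diets, and both the lowest and the highest Mapt level of all mice were in AwT+/TWD. In A+Tw/STD the 5 mice had 12.73, 12.92, 12.77, 13.04 and 13.05, and in A+T+/STD the 4 mice had 13.09, 12.84, 12.87 and 12.77. A+Tw/TWD mice had 12.61, 12.85 and 13.06 as lowest, median and highest, and A+T+/TWD mice 12.64, 12.96 and 13.20. These groups overlapped as well.

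The Mapt difference between T+ and Tw mice was 0.06 (SE 0.055, 95% interval −0.05 to 0.17, adjusted p 1.00 in limma). The upper end of this interval, 0.17 on the log2 scale, belongs to this fit and is not a maximum. In batch 1 alone the difference was 0.12 (95% interval −0.05 to 0.29). Within the 4 backgrounds the difference was 0.12 in Aw mice on STD, 0.04 in Aw mice on TWD, −0.01 in A+ mice on STD and 0.09 in A+ mice on TWD, and each interval held 0. The widest of them ran from −0.26 to 0.24, in A+ mice on STD.

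Among the related microtubule proteins, Map2, which lies mainly in dendrites, differed by 0.11 between T+ and Tw mice (95% interval −0.18 to 0.39). Map1b, a protein prominent in growing neurites, differed by 0.03 (−0.25 to 0.31). Their intervals were wider than that of Mapt, and their levels varied more between mice of a group (SD 0.473 for Map2 and 0.471 for Map1b, against 0.176 for Mapt).

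Of the kinases and the phosphatase, Gsk3b had the highest difference between T+ and Tw mice at 0.12 (95% interval −0.14 to 0.38) and its paralog Gsk3a stood at −0.05 (−0.20 to 0.10). Cdk5 differed by −0.07 (−0.22 to 0.08) and its activator Cdk5r1 by 0.04 (−0.15 to 0.22). Mark1 had the tightest interval, from −0.08 to 0.08 around 0.00. Fyn differed by −0.09 (−0.19 to 0.02) and Ppp2ca by −0.10 (−0.25 to 0.05). All 10 intervals held 0.

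Within single backgrounds the tau comparison again called 0 of the 10 genes, with 0 of 10 at an unadjusted p under 0.05 in each of the 4 limma contrasts. The share called among all genes was 0% in Aw mice on STD, in Aw mice on TWD and in A+ mice on TWD, where 380, 484 and 208 genes had an unadjusted p under 0.05, and 0.00629% in A+ mice on STD, where the 1 gene called was Arsi. The lowest values were −0.27 for Ppp2ca in Aw mice on STD and −0.23 for Cdk5 in Aw mice on TWD. Gsk3b differed by 0.21 in Aw mice on TWD and by 0.17 in A+ mice on TWD, each with an interval that held 0 (−0.29 to 0.70 and −0.33 to 0.66).

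**Figure D1:**
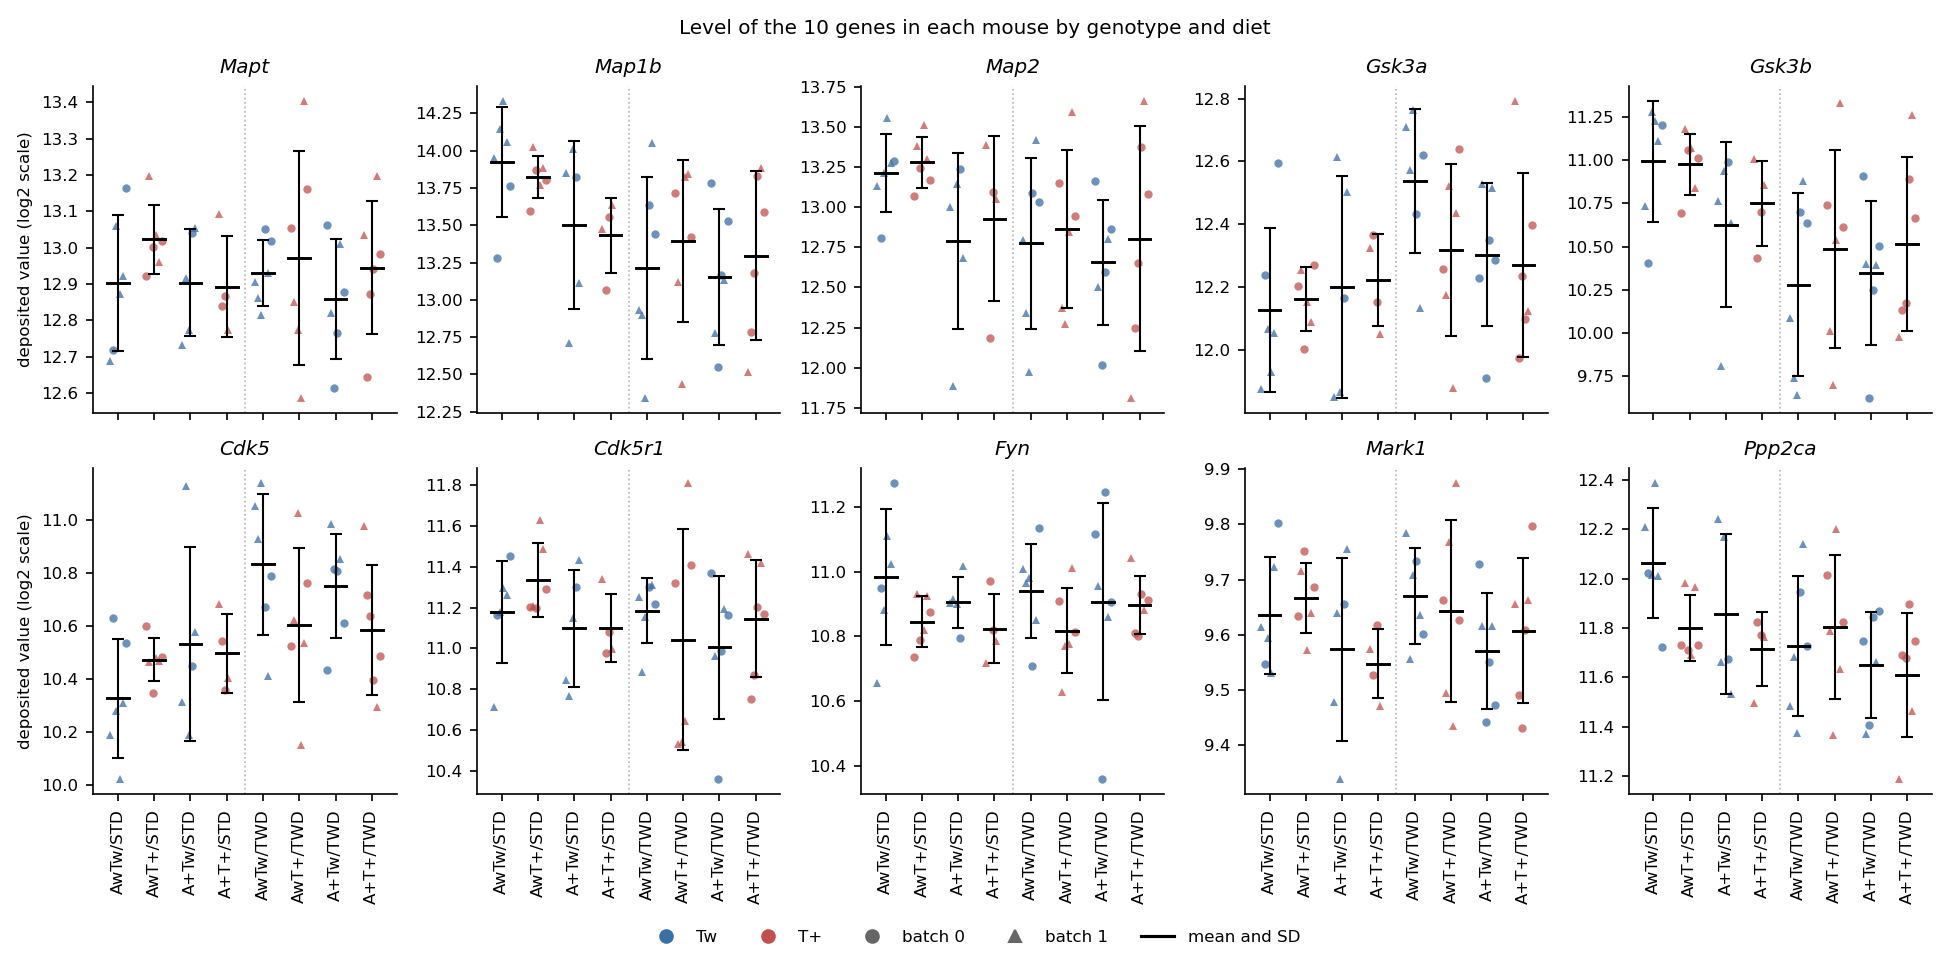
Level of each of the 10 genes on the variance-stabilised log2 scale (each panel has its own axis, not from 0) in the 8 genotype-by-diet groups, 1 point per mouse, with the group mean and SD, blue for Tw and red for T+, circles for batch 0 and triangles for batch 1. Mapt and Mark1 stayed within 0.82 and 0.54 over all 45 mice, while Map1b, Map2 and Gsk3b spread over 1.99, 1.85 and 1.70.

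The other genes of tau biology were read in the same tau contrast. None of 18 other microtubule-associated protein genes, 37 other tau kinase and activator genes, 30 other protein phosphatase subunit and regulator genes and 13 genes of tau modifiers and binding partners passed the test between T+ and Tw mice. Their median differences were −0.02, 0.00, −0.06 and −0.00. Among all genes 3 (0.0189%) were called in this contrast, so 0 calls in these lists lie near that share. Markers of the choroid plexus, the secretory epithelium beside the hippocampus, lay higher in T+ mice for 6 of 6 genes, with a median difference of 0.95, but 0 of 6 passed the test. Their mean level ran from 6.04 to 11.14 in T+ mice (median 10.11) and from 6.61 to 10.54 in Tw mice (median 8.79). With the choroid plexus score of each mouse in the model the Mapt difference was 0.12 (adjusted p 0.999), and with the neuron score 0.11 (adjusted p 0.341). Both values were above the Mapt difference without a score. Their intervals and unadjusted p-values are not given here, so the statements on intervals above do not cover these fits.

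The 10 genes differed widely in abundance. Levels were set against each other per length, as the variance-stabilised log2 value minus the log2 of the longest annotated transcript in kb. Gsk3a stood highest at 11.09 ± 0.26 (SD, n = 45 mice), followed by Mapt at 10.54 ± 0.17, Map2 at 10.27 ± 0.48 and Map1b at 9.91 ± 0.51. Cdk5 came next at 9.54 ± 0.27 and its activator Cdk5r1 at 9.08 ± 0.30, close to Fyn at 9.06 ± 0.16 and Ppp2ca at 8.95 ± 0.26. Gsk3b (7.56 ± 0.48) and Mark1 (7.54 ± 0.12) were the least abundant per length. The order depends on the length used. With the median length of a gene's annotated transcripts in place of the longest, chosen after seeing the data, Mapt stood highest at 13.24, then Map1b (12.50), Map2 (12.41), Gsk3a (11.10) and Cdk5 (10.93), and Gsk3b (9.81) lay beside Fyn (9.81) and Ppp2ca (9.84), with Mark1 lowest in both orders (8.25).

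Several neighbours in the order by longest transcript traded places between mice. The mean difference between Mapt and Map2 per length, 0.27 (SE 0.063), was smaller than its SD over single mice, 0.43, and Mapt was above Map2 in 32 of 45 mice. The differences were likewise within the SD over single mice for Map1b and Cdk5, Cdk5r1 and Fyn, Fyn and Ppp2ca, and Gsk3b and Mark1, where the order was kept in 33, 26, 30 and 27 of 45 mice. As means over 45 mice, Cdk5r1 and Fyn (0.02, SE 0.039) and Gsk3b and Mark1 (0.02, SE 0.069) differed by less than their SE, and Map1b and Cdk5 by 0.37 (SE 0.113). Gsk3a lay above Mapt, and Ppp2ca above Gsk3b, in all 45 mice.

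The genes also differed in how steady they were. The SD of Mark1 over all 45 mice, 0.116, stood at percentile 0.856 of all genes. Those of Fyn (0.160) and Mapt (0.169) stood at percentiles 7.45 and 9.46, and those of Map1b, Map2 and Gsk3b at percentiles 89.8, 88.2 and 87.7. An SD over all mice holds differences between groups, diet among them, as well as the spread within groups. The percentiles are not adjusted for abundance. The steady and the variable genes were thus both found among cytoskeletal genes and among kinases.

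APP/PS1 genotype called none of the 10 genes, with 1 of 10 at an unadjusted p under 0.05, where limma called 3.77% of all genes (599 genes, 3.11% higher and 0.661% lower in A+ mice). The differences lay below 0 for 9 of 10 genes, with a median of −0.09 against −0.02 over all genes. Ppp2ca was the gene under the unadjusted threshold, at −0.15 (95% interval −0.30 to −0.00, p 0.0479, adjusted p 0.327). Map1b differed by −0.25 (adjusted p 0.382), Map2 by −0.24 (adjusted p 0.404), Mark1 by −0.08 (adjusted p 0.341) and Mapt by −0.06 (adjusted p 0.614). Cdk5 was the gene above 0, at 0.03.

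Of the wider lists, 2 of 18 other microtubule-associated protein genes fell in A+ mice, where 0.661% of all genes did, Map6d1 by 0.15 (adjusted p 0.0217) and Stmn4, a stathmin that binds free tubulin, by 0.14 (adjusted p 0.0440). Among 37 other tau kinases, Syk, a tyrosine kinase known best from immune cells, was the 1 gene called higher, by 0.25 (adjusted p 0.0194), beside 3.11% of all genes. The Map6d1 and Syk calls held in all 45 fits that left out 1 mouse each but not in either batch alone or with quantile normalization, and the Map6d1 call was also lost with the neuron score and with the choroid plexus score. The Stmn4 call held in 14 of 45 fits and in 2 of 11 other settings. None of the 30 phosphatase genes or the 13 modifier genes was called. In the same contrast 4 of 6 microglia markers rose, C1qa by 1.19 and Csf1r by 0.63, and of the astrocyte markers Gfap alone was called, 1.44 higher. Their part in the Syk value was not tested.

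**Figure D2:**
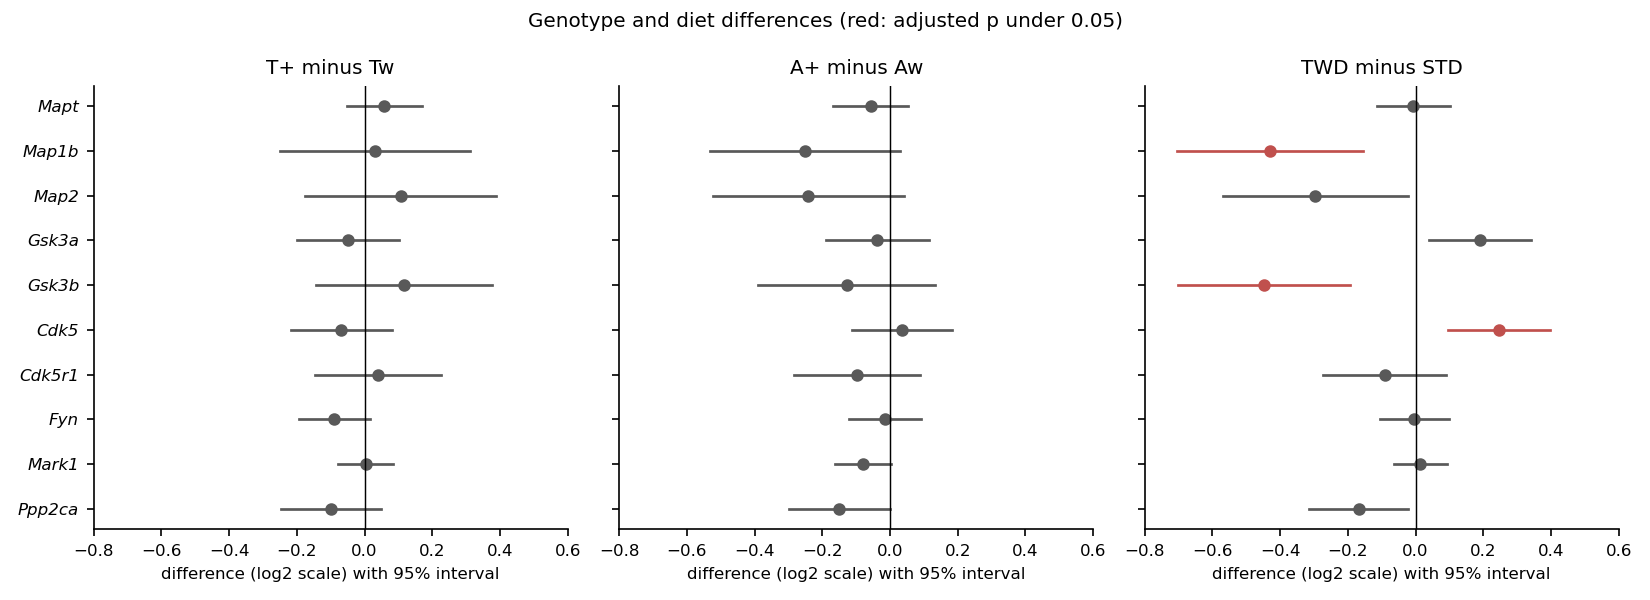
Differences of the 10 genes on the log2 scale with 95% intervals for tau genotype (T+ minus Tw), APP/PS1 genotype (A+ minus Aw) and diet (TWD minus STD), 45 mice in each fit. Every tau interval holds 0, as does every APP/PS1 interval but that of Ppp2ca, and Gsk3b and Map1b lie lower and Cdk5 higher on TWD.

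Diet moved 3 of the 10 genes, where limma called 29.4% of all genes (4678 genes), about the same share. Averaged over genotypes, Gsk3b and Map1b were lower and Cdk5 was higher on TWD, and Mapt, Fyn, Mark1 and Cdk5r1 were not called. Among all genes 16% were called higher on TWD and 13.4% lower. The median over the 10 genes was −0.05, against −0.00 over all genes.

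Gsk3b, the β form of glycogen synthase kinase 3, lies at chr16:38089001-38246084 on the + strand. On STD its lowest, median and highest levels were 10.40, 11.16 and 11.28 in AwTw mice and 10.69, 11.04 and 11.18 in AwT+ mice. On TWD they were 9.64, 10.36 and 10.88 in AwTw mice and 9.70, 10.57 and 11.33 in AwT+ mice. TWD medians were the lower ones in both, with overlap between the diets. In A+Tw/STD the 5 mice had 10.77, 9.81, 10.94, 10.99 and 10.63, and in A+T+/STD the 4 mice had 11.00, 10.43, 10.70 and 10.86. On TWD the lowest, median and highest were 9.63, 10.40 and 10.91 in A+Tw mice and 9.98, 10.42 and 11.26 in A+T+ mice. One A+Tw/STD mouse, at 9.81, was the single STD mouse below 10. Over all mice the median Gsk3b level was 10.94 on STD and 10.45 on TWD, a fitted difference of −0.45 (SE 0.126, 95% interval −0.70 to −0.19, adjusted p 0.0159 in limma).

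Map1b lies at chr13:99421446-99516540 on the − strand. It had lowest, median and highest levels of 13.28, 14.01 and 14.33 in AwTw/STD and 12.34, 13.18 and 14.05 in AwTw/TWD mice. In AwT+ mice they were 13.60, 13.84 and 14.02 on STD and 12.44, 13.57 and 13.84 on TWD. Both medians were lower on TWD, and the ranges overlapped. The A+Tw/STD mice had 13.85, 12.71, 14.01, 13.82 and 13.12 and the A+T+/STD mice 13.48, 13.07, 13.56 and 13.63. On TWD the A+Tw mice had 12.55, 13.15 and 13.78 as lowest, median and highest, and the A+T+ mice 12.51, 13.39 and 13.89. The mouse lowest for Gsk3b on STD was also the lowest for Map1b on STD, at 12.71. The fitted diet difference of Map1b was −0.43 (SE 0.136, 95% interval −0.70 to −0.16, adjusted p 0.0218 in limma).

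Cdk5, at chr5:24418241-24423530 on the − strand, went the other way. Its lowest, median and highest levels were 10.02, 10.30 and 10.63 in AwTw/STD and 10.41, 10.86 and 11.14 in AwTw/TWD mice, and 10.35, 10.47 and 10.60 in AwT+/STD and 10.15, 10.58 and 11.03 in AwT+/TWD mice. The A+Tw/STD mice had 10.32, 11.13, 10.19, 10.45 and 10.58 and the A+T+/STD mice 10.69, 10.54, 10.36 and 10.40. On TWD the A+Tw mice had 10.43, 10.81 and 10.99 and the A+T+ mice 10.30, 10.56 and 10.98 as lowest, median and highest. The A+Tw/STD mouse at 11.13 was the same mouse that was lowest for Gsk3b and Map1b on STD. Cdk5 was 0.25 higher on TWD (SE 0.075, 95% interval 0.10 to 0.40, adjusted p 0.0189 in limma).

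The other 7 genes were not called by diet. Gsk3a, the α form of the kinase, differed by 0.19 (95% interval 0.04 to 0.34, adjusted p 0.0505), Ppp2ca by −0.17 (adjusted p 0.0725) and Map2 by −0.30 (adjusted p 0.0867). These 3 genes had unadjusted p-values under 0.05, so that 6 of 10 did. Cdk5r1 differed by −0.09 (adjusted p 0.437), Mapt by −0.01 (95% interval −0.11 to 0.10), Mark1 by 0.01 and Fyn by −0.00. The calls of Gsk3b, Cdk5 and Map1b held in all 45 fits that left out 1 mouse each, and Gsk3a was called in 14 of these.

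The diet values moved with a leading axis of variation between mice. This axis was the first component of the residuals after group and batch, and held 41.3% of the residual variance over all genes. The score of each mouse on it, called the residual score, was taken from the deposited levels with group and diet differences kept. It had a median of −0.51 on STD (−1.95 to 1.23) and 0.26 on TWD (−1.24 to 2.42). As a description over 45 mice, Cdk5 and Gsk3a correlated with the score at 0.92 and 0.83, and Map1b, Ppp2ca, Map2 and Gsk3b at −0.91, −0.86, −0.74 and −0.72, while Mapt, Fyn, Cdk5r1 and Mark1 lay between −0.11 and 0.25. The mice share their libraries and scaling across genes in these correlations, and the score was built from the same table. As the score itself differs by diet, a model that holds it can also take up part of a diet difference. Such a fit cannot tell the axis and the diet apart. With the score in the model the diet difference was −0.20 for Gsk3b (adjusted p 0.629), 0.04 for Cdk5 (adjusted p 0.733) and −0.06 for Map1b (adjusted p 0.816), and 0 of 15897 genes were called in limma, with 1281 at an unadjusted p under 0.05.

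The diet differences were also unequal between batches. In batch 0 alone 0 genes were called and the difference was −0.25 for Gsk3b (adjusted p 0.820), −0.14 for Map1b (adjusted p 0.849) and 0.15 for Cdk5 (adjusted p 0.820). In batch 1 alone 6498 genes were called, and the difference was −0.59 for Gsk3b (adjusted p 0.0217), −0.68 for Map1b (adjusted p 0.0182) and 0.35 for Cdk5 (adjusted p 0.0274). Directions of these 3 genes were shared by both batches. A test of the diet difference between batches called 0 of the 10 genes and 0% of all genes in limma, with 2 of the 10 and 4456 of all genes at an unadjusted p under 0.05. Map1b differed between batches by −0.55 (adjusted p 0.177).

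**Figure D3:**
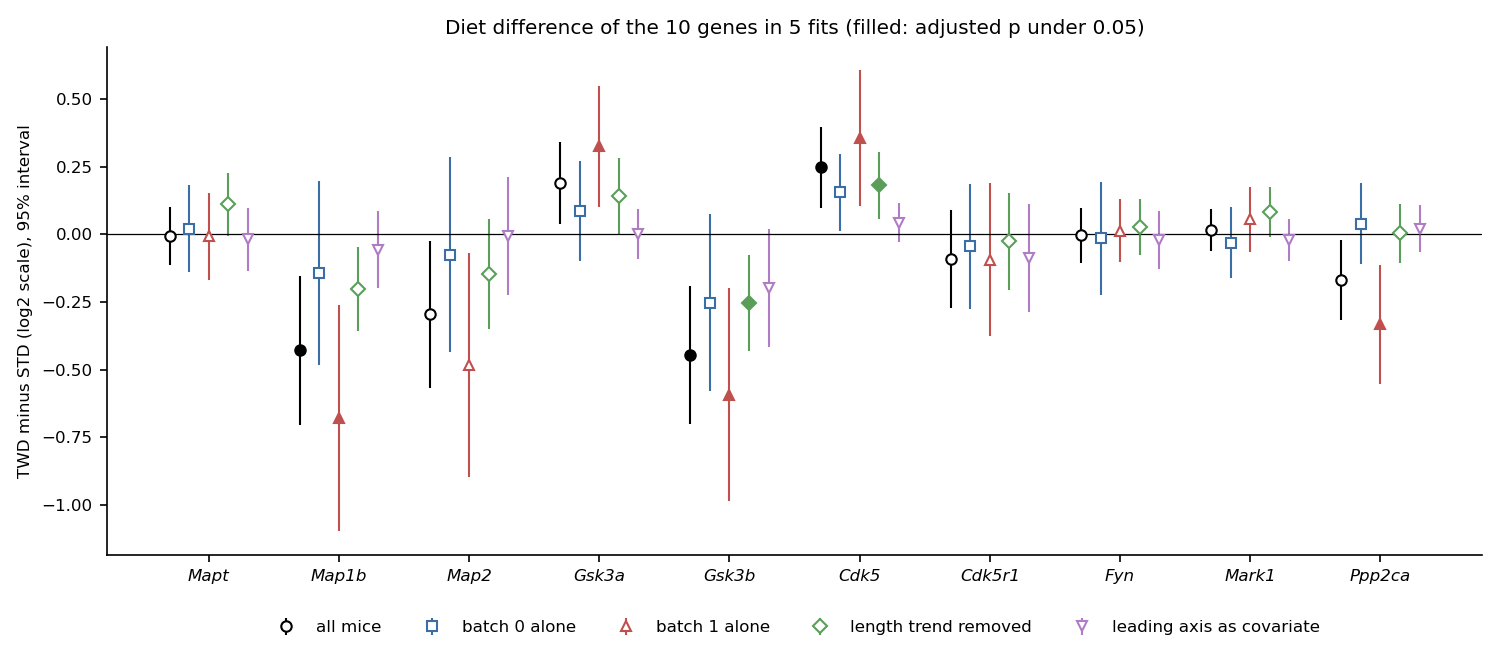
Diet difference (TWD minus STD, log2 scale, 95% interval) of the 10 genes with all mice, in each batch alone, with the length trend removed and with the residual score (leading axis) as a covariate, filled where called. The Gsk3b difference is −0.45 with all mice, −0.25 in batch 0 and −0.59 in batch 1.

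Transcript length went with the diet differences over the whole table. Genes whose longest transcript was up to 1 kb had a median diet difference of 0.15, and those over 8 kb −0.20. Of the genes over 8 kb, 37.3% were called lower on TWD and 2.47% higher, and of those up to 1 kb 2.91% were called lower and 37.4% higher. By longest transcript the 10 genes followed the same order. Cdk5 (2059 bases) and Gsk3a (2260 bases) were highest and Gsk3b (8303 bases) and Map1b (11808 bases) lowest. The Spearman correlation between longest transcript and diet difference was −0.92 over the 10 genes, given as a description. This order depends on the length used. By median annotated transcript, Gsk3b (1750 bases) and Map1b (1954.5 bases) were shorter than Gsk3a (2248 bases). The correlation by median length is not given. With a smooth length trend removed from each mouse, the diet difference was −0.25 for Gsk3b (adjusted p 0.0384), 0.18 for Cdk5 (adjusted p 0.0372), −0.20 for Map1b (adjusted p 0.0513) and 0.11 for Mapt (adjusted p 0.145). Gsk3b and Cdk5 thus stayed past the threshold and Map1b did not. The part of RNA quality in these values was not tested.

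**Figure D4:**
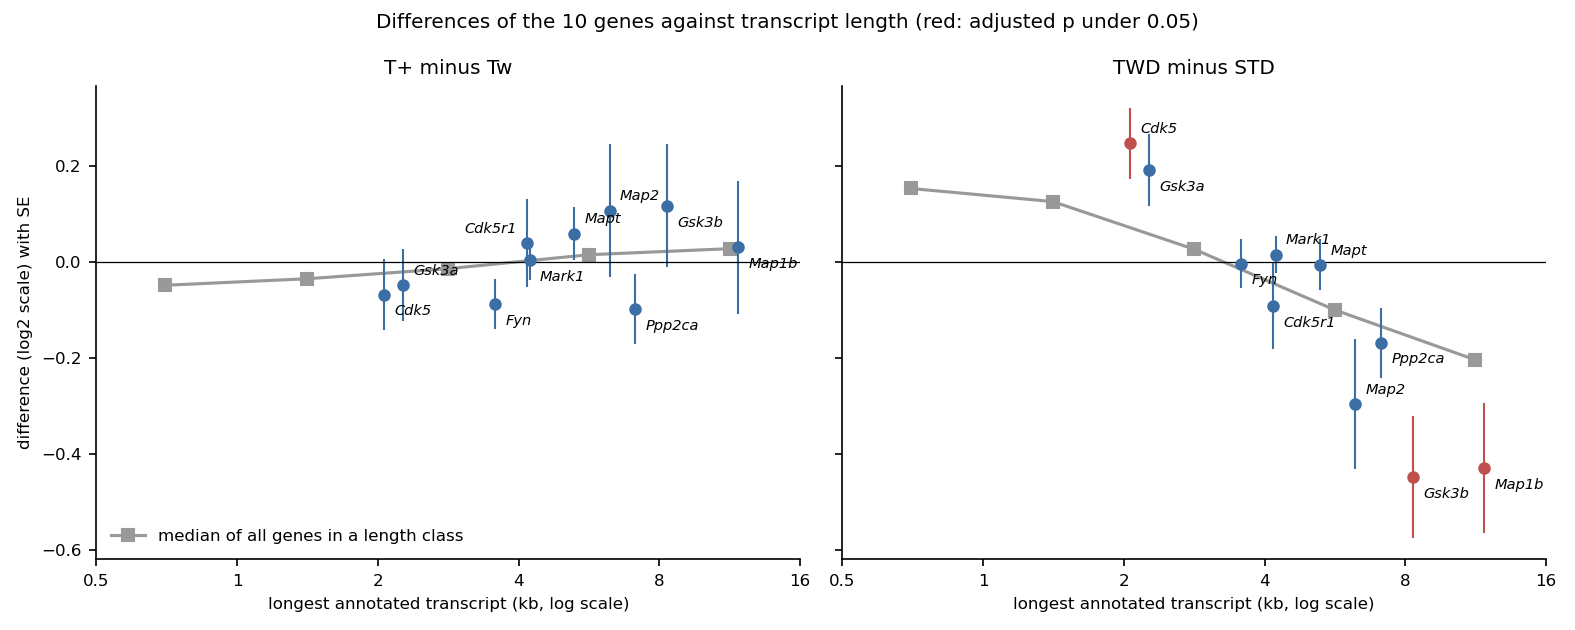
Differences (log2 scale) of the 10 genes with their SE, for T+ minus Tw on the left and TWD minus STD on the right, against the length of the longest annotated transcript (log axis, kb), with grey squares for the median of all genes in a length class and red for genes called. On the right the medians fall with length, from 0.15 up to 1 kb to −0.20 over 8 kb, and on the left they stay between −0.05 and 0.03.

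The GSK3 paralogs lay on opposite sides of 0 in the diet contrast, and are paired in 1 mouse, so their gap was described per mouse. Gsk3a minus Gsk3b had a median of 1.19 on STD (0.70 to 2.80) and 2.01 on TWD (0.87 to 3.12). In AwTw mice it was 0.70, 1.04 and 1.84 on STD and 1.25, 2.30 and 3.12 on TWD as lowest, median and highest. Each median was thus higher on TWD, while the ranges overlapped. The longest transcript had 2260 bases for Gsk3a and 8303 bases for Gsk3b. Over all genes the median diet difference was 0.03 at 2 to 4 kb and −0.20 over 8 kb. The part of transcript length in this gap was not tested.

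The 250 bases before the start of both paralogs are shown because the kinases are close relatives with differences on opposite sides of 0. They are taken from RefSeq on GRCm38.p6, written 5′ to 3′ in the direction of the gene, with the CCAAT box, searched as CCAAT on both strands, in capitals. Gsk3b is at chr16:38088751-38089000 (+ strand) and Gsk3a at chr7:25237852-25238101 (− strand).
Gsk3b: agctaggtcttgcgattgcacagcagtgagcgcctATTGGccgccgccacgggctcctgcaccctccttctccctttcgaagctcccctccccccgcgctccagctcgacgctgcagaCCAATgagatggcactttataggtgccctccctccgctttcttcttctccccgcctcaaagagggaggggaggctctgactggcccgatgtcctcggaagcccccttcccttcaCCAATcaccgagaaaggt
Gsk3a: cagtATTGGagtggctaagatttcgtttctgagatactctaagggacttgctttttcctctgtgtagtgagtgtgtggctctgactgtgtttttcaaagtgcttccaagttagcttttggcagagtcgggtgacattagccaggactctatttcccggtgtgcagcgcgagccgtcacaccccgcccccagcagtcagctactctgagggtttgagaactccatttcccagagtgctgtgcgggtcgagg
The Gsk3b window held 3 CCAAT boxes and the Gsk3a window held 1. Of 32851 RefSeq windows of this length, 2.79% held 3 or more. At least 1 box was present in 33.8% of all windows. The GC box, searched as GGGCGG on both strands, occurred 1 time before Gsk3a and 0 times before Gsk3b, and in 32.7% of all windows. Of the 7 genes with a RefSeq window, Gsk3a, Gsk3b and Fyn held a CCAAT box. These are matches of letters and were not tested as binding sites.

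Within AwTw mice, diet called 1 of the 10 genes, where limma called 9.35% of all genes (1487 genes, 6.01% higher and 3.34% lower on TWD). Cdk5 was 0.50 higher on TWD (95% interval 0.22 to 0.79, adjusted p 0.0498). Gsk3b differed by −0.71 (95% interval −1.21 to −0.22, adjusted p 0.0506), Gsk3a by 0.41 (adjusted p 0.0513), Map1b by −0.71 (adjusted p 0.0579) and Ppp2ca by −0.34 (adjusted p 0.0749), so that these values stood close to the threshold. Mapt differed by 0.03 (95% interval −0.18 to 0.24). The Cdk5 call was lost in 32 of 45 fits that left out 1 mouse, and the number of the 10 genes called ran from 0 to 5.

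In the transgenic genotypes diet called 0 of the 10 genes and 0% of all genes, in limma, with 0 of 10 at an unadjusted p under 0.05 in each. The AwT+ contrast had 1183 of all genes at an unadjusted p under 0.05, the A+Tw contrast 705 and the A+T+ contrast 409. The Gsk3b difference was −0.48 for AwT+ (adjusted p 0.646), −0.29 for A+Tw (adjusted p 0.717) and −0.24 for A+T+ mice (adjusted p 0.998). The Cdk5 difference was 0.13, 0.23 and 0.09 in these genotypes and that of Map1b −0.42, −0.38 and −0.15. All 9 values had the direction of the AwTw mice.

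Whether the tau effect depended on diet or on APP/PS1 genotype was tested directly. None of the 10 genes passed, and 0% of all genes did, in limma, with 0 of 10 at an unadjusted p under 0.05. The tau effect on TWD minus that on STD ran from −0.26 for Cdk5 (95% interval −0.55 to 0.04, adjusted p 0.817) to 0.26 for Map1b (−0.30 to 0.82). For Mapt it was 0.01 (−0.21 to 0.23). Among all genes 518 had an unadjusted p under 0.05. The tau effect in A+ minus that in Aw mice ran from −0.06 for Cdk5 to 0.09 for Gsk3a, and among all genes 232 had an unadjusted p under 0.05. The APP/PS1 effect on TWD minus that on STD ran from −0.21 for Gsk3a to 0.33 for Gsk3b (−0.20 to 0.86), with 412 genes of all at an unadjusted p under 0.05. Split by APP/PS1 genotype, the tau effect on TWD minus that on STD was −0.38 for Cdk5 in Aw mice (adjusted p 0.780) and −0.14 in A+ mice.

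The wider tau lists held diet calls in both directions, beside 29.4% of all genes called (16% higher and 13.4% lower). Of the 18 other microtubule-associated protein genes 9 were called, 6 of them higher on TWD, among them the stathmins Stmn3 (0.34), Stmn2 (0.29) and Stmn1 (0.21) and the microtubule end-binding gene Mapre3 (0.23). Of the 37 other tau kinase genes 17 were called and 10 of these were lower, Ttbk2 by 0.61, Csnk2a1 (the catalytic subunit of casein kinase 2) by 0.32, Mapk9 (JNK2) by 0.29 and Dyrk1a by 0.26. Of the 30 phosphatase genes 14 were called, 7 in each direction, with Ppp2r1a, the PP2A scaffold subunit, 0.35 higher. The PP2A regulators Ppp2r5d and Lcmt1, the methyltransferase of its catalytic subunit, were 0.29 and 0.20 higher, and the phosphatase Ppp5c 0.26 higher.

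Of the 13 modifier genes 8 were called, beside the same 29.4% of all genes, 5 of them higher, with the ubiquitin ligase Stub1 (0.29), the membrane-curving protein Bin1 (0.24) and the immunophilin Fkbp4 (0.23) among them. The medians of the 4 lists were 0.02, −0.04, −0.07 and 0.09, against −0.00 over all genes. With the length trend removed 6, 11, 8 and 6 genes of the lists and 20.4% of all genes were called, and with the residual score in the model, or in batch 0 alone, 0 in each. Of the genes named for these lists, Stmn1 (0.08, adjusted p 0.246 in limma) and Dyrk1a (−0.12, adjusted p 0.0584) lost their calls with the length trend removed. The other named genes kept theirs.

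Cell type markers also moved with diet, again beside 29.4% of all genes. Of the neuron markers 6 of 10 were called, 3 of them higher on TWD, of the astrocyte markers 4 of 6 with 1 higher, of the oligodendrocyte markers 3 of 6, all higher, and of the microglia markers 4 of 6 with 3 higher. One of 5 endothelial markers was called lower, and 0 of 6 choroid plexus and 0 of 4 blood markers were called. With the residual score in the model, or in batch 0 alone, 0 of 15897 genes were called, so these calls were lost there. Of the oligodendrocyte markers, the Mag call was lost in 13, the Mbp call in 18 and the Cnp call in 22 of 45 fits that left out 1 mouse, and the microglial P2ry12 call in 23. The mean level of the neuron markers ran from 12.79 to 13.21 on STD (median 12.92) and from 12.50 to 13.16 on TWD (median 12.92), and that of the astrocyte markers from 11.67 to 12.23 and from 11.28 to 12.34. Their part in the diet differences of the 10 genes was not tested beyond the neuron and choroid plexus scores.

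In AwTw mice, where 9.35% of all genes were called (6.01% higher and 3.34% lower), the lists held 3 calls among the 18 other microtubule-associated protein genes, with Dcx, a marker of young neurons, 1.08 lower, Mapre1 0.82 lower and Stmn3 0.53 higher on TWD. The kinase list held 3 calls among 37 genes (Csnk2a1 0.58 lower, Mapk9 0.56 lower, Prkaca 0.43 higher). The phosphatase list held 6 among 30 genes, with Ppp5c 0.53 higher and Ppp2r5e 0.62 lower among them. The modifier list held 6 among 13 genes, with both enzymes of O-GlcNAc cycling lower, Ogt by 1.14 and Oga by 0.60, and Lrp1, a tau uptake receptor, 0.52 higher. Each gene named here was called in 13 of 45 fits that left out 1 mouse and in 5 of 11 other settings, and none was called with quantile normalization, without the mean trend, in batch 0 alone, with the 2 compared groups alone, with the length trend removed or with the residual score. With that score the difference was −0.07 for Ogt, −0.08 for Oga and 0.15 for Lrp1 (adjusted p 1.00 for each in limma).

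Across the 45 mice, after group and batch means were removed, the genes fell into sets that varied together. Pairs of Map1b, Map2 and Gsk3b correlated at 0.89 to 0.93, and Map1b and Cdk5 at −0.89. Gsk3a and Cdk5 correlated at 0.76, Cdk5 and Ppp2ca at −0.74, Mapt and Cdk5r1 at 0.81 and Mapt and Mark1 at 0.64, while Mapt and Cdk5 were at −0.00. These are descriptions over mice that share libraries, scaling and length effects between genes. The neuron and astrocyte scores were set against the deposited levels, without removal of group means, so these values also hold genotype and diet differences. The neuron score correlated with Mapt at 0.77, Cdk5r1 at 0.70, Mark1 at 0.61 and Fyn at 0.58. The astrocyte score correlated with Gsk3b at 0.75, Map2 at 0.69 and Map1b at 0.68.

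**Figure D5:**
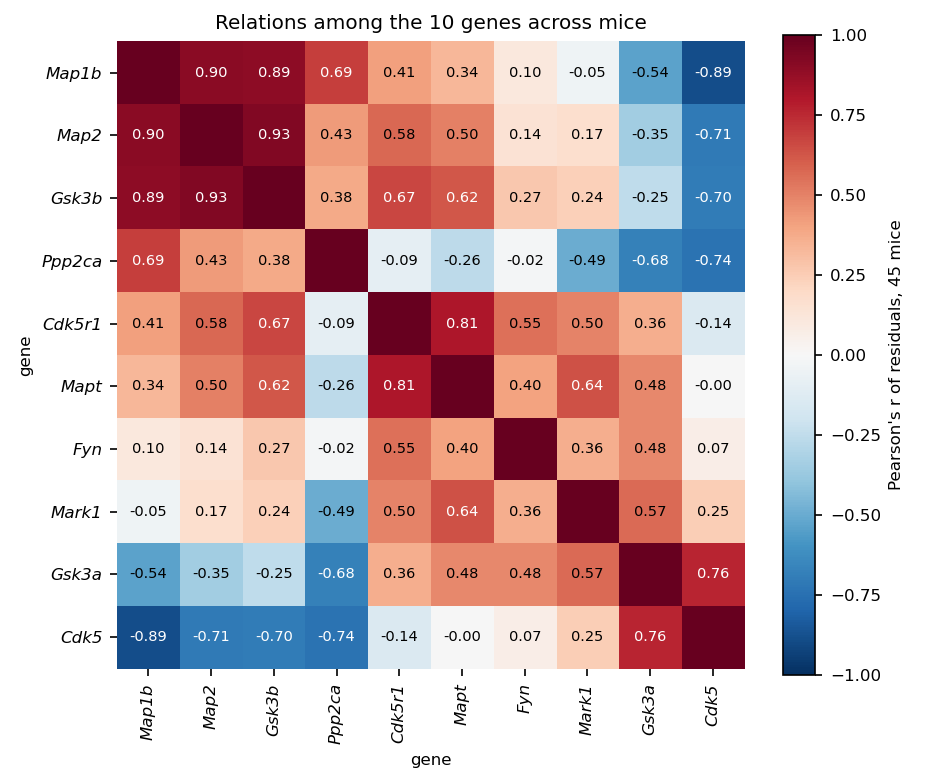
Pearson correlations over 45 mice between the 10 genes, after removal of group and batch means, coloured from blue (−1) to red (1). Map1b, Map2 and Gsk3b stand together at 0.89 to 0.93, against Cdk5 and Gsk3a, and Mapt stands with Cdk5r1 at 0.81.

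The genes most like Mapt over the 45 mice in these residuals were Sdc3 (correlation 0.911), Gabbr2 (0.883), Mef2d (0.873), Mnt (0.873) and Dlgap1 (0.869). Those most like Gsk3b were the gene ENSMUSG00000111861 without a symbol (0.965), Cpeb3 (0.965), Aak1 (0.957), Abi2 (0.943) and Arhgap32 (0.942). The longest transcripts of the 4 named Gsk3b neighbours had 5768 to 19341 bases and those of the 5 Mapt neighbours 4590 to 7173 bases.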

How the data were processed

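Hippocampal poly(A) RNA was sequenced by the authors in single 50-base reads, and per the labels and the study's methods reads were checked and trimmed with FastQC 0.11.8 and Trimmomatic 0.38, cleared of ribosomal and mitochondrial reads with Bowtie2 2.2.3 and quantified with kallisto 0.44.0, which shares reads among similar transcripts, so close paralogs can trade reads. The deposited values are on the log2 scale: counts transformed with the variance-stabilising transformation of DESeq2 1.22.2 and corrected for batch by the authors with limma 3.38.3. The batch means of every gene were equal in the table. Read totals are not given, so no counting errors are stated.

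Symbols were matched by Ensembl identifier to 15695 of 15897 genes, and coordinates are on GRCm38. From the deposited values limma 3.58.1 (R 4.3.3) was fitted over all genes with the 8 groups and batch, or genotype, diet and batch for the diet effect over all genotypes, with a mean-variance trend. Tests were two-sided with Benjamini-Hochberg adjustment at 0.05. The fit was tested on simulated data whose noise was independent between genes, without the leading axis of the real residuals. That simulation therefore cannot speak for calls that move with this axis, the diet calls among them. The text names the 10 genes, at most 4 genes of each other list by adjusted p (1 of them is not reported here) in the diet and APP/PS1 contrasts, the 5 genes most like Mapt and Gsk3b, and Camk2a, App and Prnp. The members and lists were chosen with earlier results of these data known. Alternatives were no batch term, quantile normalization, a filter at the 25th percentile of the mean, no trend, the residual score, each batch alone, each mouse left out, the compared groups alone and the other averaging (an additive fit in place of the 8 groups for the genotype effects, the mean of the 4 genotypes for diet). The neuron and choroid plexus scores, the length trend (spline with 5 degrees of freedom), the diet-by-batch term and the median transcript length were added after seeing the data.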

Additional observations from a re-analysis of the deposited data

Results flagged for a closer look

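Among 80 sets of 1 gene in 1 group examined, 1 had a mouse far from the rest, where chance gives about 1 in 20. In AwTw/TWD mice the lowest of 6 Cdk5r1 levels was 10.88, in replicate 2 (batch 1), with the nearest other mouse at 11.15 and the highest at 11.31, so that the gap took up a share of 0.636 of the range.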

How the results depend on the processing

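No paired analysis was possible because the replicate numbers only name mice in accession order. Of the counts of the 10 genes called, all but those for diet over all genotypes and in AwTw mice were 0 under every alternative run. For diet over all genotypes, 3 genes became 0 with the residual score and in batch 0 alone and 5 in batch 1 alone, 4 without the batch term, with quantile normalization, with the filter on low means and with the neuron or choroid plexus score, and 2 with the length trend removed, with 3 to 5 when 1 mouse was left out. It was 5 without replicate 2 of A+Tw/STD, replicate 2 of A+T+/STD, replicate 6 of AwTw/STD, replicate 4 of AwT+/TWD, replicate 5 of A+T+/TWD or replicate 5 of AwTw/TWD. For diet in AwTw mice, 1 gene became 3 without the batch term, 4 with the filter on low means, in batch 1 alone and with the neuron or choroid plexus score, and 0 with quantile normalization, without the mean trend, with the residual score, in batch 0 alone, with the 2 compared groups alone and with the length trend removed, and 0 to 5 when 1 mouse was left out. The cause was not tested. Batch 0 alone holds fewer mice.

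Of 440 values of the 10 genes under other settings, 51 changed sign, none of them called with all mice. For T+ minus Tw, in batch 0 alone Mapt became −0.01, Map1b −0.04, Map2 −0.08, Gsk3b −0.04, Cdk5r1 −0.05, Mark1 −0.01 and Ppp2ca 0.02, and with the length trend removed Map1b became −0.02 and Mark1 −0.01. For A+ minus Aw, in batch 1 alone Mapt became 0.02, Gsk3a 0.11 and Cdk5r1 0.04. With the neuron score Mapt became 0.08, Gsk3a 0.08, Gsk3b 0.11, Cdk5r1 0.11 and Fyn 0.08, with the choroid plexus score Mapt 0.00 and Fyn 0.03, and with quantile normalization Fyn 0.03. Cdk5 became −0.06 with the residual score, −0.08 in batch 0 alone and −0.01 with the length trend removed.

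For TWD minus STD, Mapt became 0.02 in batch 0 alone and with the neuron score and 0.11 with the length trend removed. Fyn became 0.01 in batch 1 alone and with the neuron score, 0.00 with the other averaging and 0.03 with the length trend removed. Mark1 became −0.02 with the residual score and −0.03 in batch 0 alone, and Ppp2ca 0.02, 0.04 and, with the length trend removed, 0.00. In AwTw mice, Mapt became −0.10 with quantile normalization and −0.01 in batch 1 alone and with the neuron and choroid plexus scores, and Cdk5r1 −0.04 with quantile normalization, −0.05 in batch 0 alone and −0.04 with both scores. In batch 0 alone Map1b became 0.02, Map2 0.01 and Mark1 −0.01. With the residual score Map2 became 0.11, Mark1 −0.04 and Ppp2ca 0.01, and Fyn became 0.03 in batch 1 alone and 0.01 with the length trend removed. Leaving out 1 mouse changed the sign of 54 of 1800 values, none called. For T+ minus Tw these fits gave Map1b −0.02 to 0.08, Cdk5r1 0.00 to 0.07 and Mark1 −0.01 to 0.01, for A+ minus Aw Cdk5 0.00 to 0.06 and Fyn −0.03 to 0.01, for TWD minus STD Mapt −0.03 to 0.02 and Fyn −0.02 to 0.02, and for the diet in AwTw mice Mapt −0.02 to 0.08, Cdk5r1 −0.09 to 0.07 and Fyn −0.11 to 0.02. The missing read totals limit what can be said of counting error.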
